A study of Mus musculus with 2 samples.

Results

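The genes described here encode subunits of the nuclear RNA exosome: Exosc1, Exosc2, Exosc3, Exosc4, Exosc5, Exosc7, Exosc8, Exosc9, Exosc10 and Dis3. The members were set as a list of gene symbols, with no measured value in the rule, and all 10 were found among the 55536 mouse genes of the deposited tables, with 63 of the 141864 annotated transcripts. The RNA came from the nuclear fraction of bone-marrow-derived macrophages, which are primary phagocytes grown from marrow, of C57BL/6J mice with no genetic change named. Both libraries came from cells that had received Lipid A, the part of bacterial lipopolysaccharide sensed by TLR4, at 100 ng/ml for 12 h. The cells were then kept without it for 12 h and given 100 ng/ml again for 120 min. Total RNA was depleted of ribosomal RNA and sequenced as 2 biological replicates, from 1 µg of RNA in replicate 1 and 500 ng in replicate 2. The labels give 1 donor label for both and no age or sex, so separate animals are not named for the replicates and their spread may be technical. One label field calls the fraction nucleus and another calls it nucleoplasmic. With 1 condition, the comparisons possible were between genes, between transcripts and between the libraries, and the amount of input RNA cannot be told apart from the replicate.

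The RNA exosome degrades and trims RNA from its 3′ end. A barrel-shaped ring of subunits is related to a bacterial phosphorolytic nuclease and in mammals has no activity of its own. It carries a cap of RNA-binding subunits, and RNA can be threaded through this barrel to a nuclease. In the nucleus the complex matures ribosomal, small nuclear and small nucleolar RNAs and removes short-lived transcripts such as promoter upstream RNAs, enhancer RNAs and incompletely spliced RNA. Cofactor assemblies built around the helicase encoded by Mtrex bring these substrates to it.

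The depth was 28450309 expected counts on genes for replicate 1 and 16940220 for replicate 2, so 3 counts made up 0.105 and 0.177 CPM (counts per 1e6). The exosome genes drew 1945 and 1558 of these counts, or 0.00684% and 0.0092%. Short structural RNAs and mitochondrial transcripts took 75.9% of all TPM (a share of all transcripts, corrected for length) in replicate 1 and 67.7% in replicate 2, which lowers the TPM of every other gene. Mitochondrial genes held 4.15% of counts in replicate 1 and 10.3% in replicate 2. The nuclear RNAs Malat1 and Neat1 averaged 17255 and 494 TPM, and the mitochondrial transcripts mt-Co1 and mt-Nd1, which are made outside the nucleus, averaged 20374 and 5121 TPM. The part that RNA from outside the nucleus plays in the exosome values was not tested. The 8 macrophage markers, all at or above 1 TPM in each library, had a median of 179 TPM. Of 15 markers of T cells, B cells, neutrophils, erythroid cells and fibroblasts, 14 were below 1 TPM in both libraries. The remaining one was the erythroid gene Alas2, at 0.84 and 1.77 TPM.

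By mean TPM the exosome genes ran from below the range of detected protein-coding genes (Exosc4) to just below its middle (Exosc10, percentile 46.9). Detected here means 1 TPM or more in both libraries. In 8 of the 10, TPM was 1 or more in both libraries, the exceptions being Exosc2 and Exosc4. Of all protein-coding genes, 39.6% (8726 of 22028) reached that level. The median of the members' mean TPM was 3.26, and all 10 means lay below 8.13 TPM, the median of the detected protein-coding genes. In bulk RNA, fewer molecules per nucleus and fewer nuclei with any cannot be told apart. Values are given below for replicate 1 and then replicate 2, with the authors' credibility interval, which bounds each TPM from the reads of that library. Over all genes averaging 10 counts or more, the median log2 TPM ratio, replicate 1 over replicate 2, was -0.655. A higher TPM in replicate 2 was thus the usual direction, and intervals that do not overlap include this shift.

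**Figure D1:**
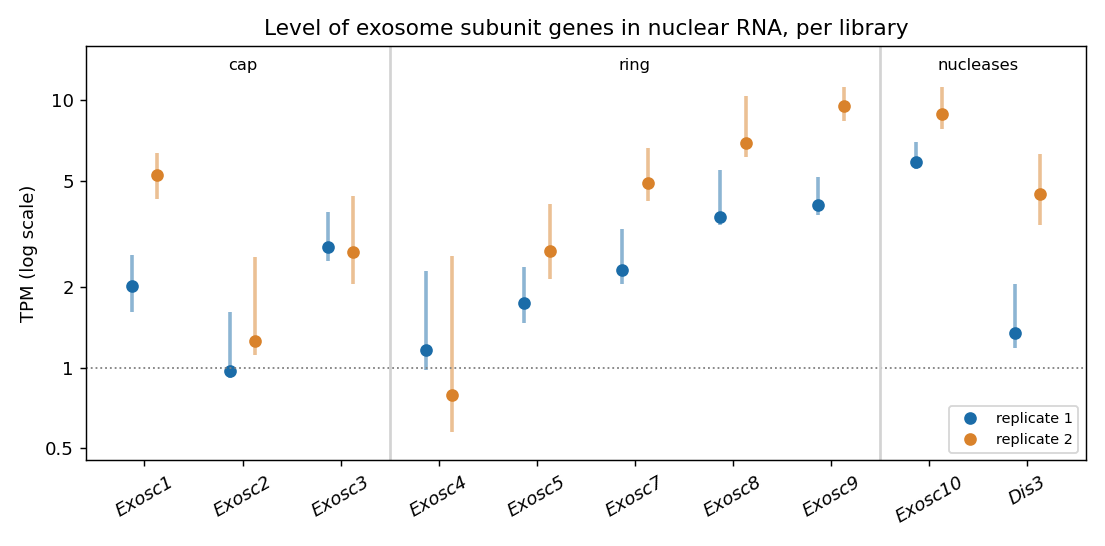
TPM (log scale) of each exosome subunit gene in replicate 1 (blue) and replicate 2 (orange), grouped by place in the complex; vertical lines are the authors' credibility intervals and the dotted line marks 1 TPM. Exosc10, Exosc9 and Exosc8 are the highest in both libraries, while Exosc2 and Exosc4 lie near the line. TPM is higher in replicate 2 in 8 of the 10 genes. The median of all genes tested goes the same way, with a log2 TPM ratio, replicate 1 over replicate 2, of -0.655.

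The cap subunits bind RNA at the entrance of the barrel. Exosc1, whose counterpart in yeast lies beside the nuclear nuclease, had 2.03 TPM (interval 1.62 to 2.65) in replicate 1 and 5.28 TPM (4.27 to 6.34) in replicate 2. Exosc2 had 0.97 TPM (0.913 to 1.62) and 1.26 TPM (1.12 to 2.6). Exosc3, mutated in a human form of pontocerebellar hypoplasia, had 2.83 TPM (2.51 to 3.81) and 2.7 TPM (2.05 to 4.38). Exosc3 thus had the closest pair of TPM values of the 10 genes, 2.77 ± 0.0919 TPM (SD, n = 2). On scaled counts, given further below, Exosc3 was higher in replicate 1, with a log2 ratio of 0.96. Exosc1 averaged 3.66 ± 2.3 TPM with libraries whose intervals did not overlap. Exosc2 averaged 1.11 ± 0.205 TPM. The second transcript table, made from the same reads with another program, gave Exosc2 1.1 and 3.39 TPM, so its level in replicate 2 differed between the programs.

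The ring subunits form the barrel. Exosc9 had 4.07 TPM (3.74 to 5.16) in replicate 1 and 9.52 TPM (8.4 to 11.2) in replicate 2. Exosc8 had 3.65 TPM (3.42 to 5.51) and 6.93 TPM (6.15 to 10.4). Exosc7 had 2.32 TPM (2.06 to 3.31) and 4.91 TPM (4.21 to 6.62). In these 3 genes replicate 2 was the higher library and the intervals did not overlap, with means of 6.79 ± 3.85, 5.29 ± 2.32 and 3.62 ± 1.83 TPM (SD, n = 2 each). Exosc5 had 1.75 TPM (1.47 to 2.38) and 2.73 TPM (2.15 to 4.1), with a mean of 2.24 ± 0.693 TPM. Exosc4 had 1.16 TPM (0.98 to 2.31) and 0.79 TPM (0.572 to 2.62), with a mean of 0.975 ± 0.262 TPM, the lowest of the 10. For both of these genes the intervals of the libraries overlapped.

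The nucleases carry the activity of the complex. Exosc10, a distributive exonuclease found in the nucleus and enriched in the nucleolus, had 5.86 TPM (5.52 to 7) in replicate 1 and 8.89 TPM (7.84 to 11.2) in replicate 2. Its mean of 7.38 ± 2.14 TPM (SD, n = 2) was the highest of the 10. Dis3, a processive exonuclease that also cuts RNA internally, had 1.35 TPM (1.18 to 2.05) and 4.47 TPM (3.43 to 6.3), with a mean of 2.91 ± 2.21 TPM. The intervals of the libraries did not overlap in either gene, and Dis3 had the largest ratio between the libraries on the TPM scale, a log2 ratio of -1.73. On scaled counts, given further below, the log2 ratio of Dis3 was -0.65. That of Exosc10 was 0.21, so on that scale Exosc10 was higher in replicate 1. Among detected protein-coding genes, the mean of Exosc10 stood at percentile 46.9 and that of Dis3 at percentile 17.1.

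By mean TPM the order was Exosc10, Exosc9, Exosc8, Exosc1, Exosc7, Dis3, Exosc3, Exosc5, Exosc2 and Exosc4. The ranges of neighbours overlapped at every step of this order but the one between Exosc5 and Exosc2. Exosc8 held rank 3 and Exosc7 rank 5 in each library, and Exosc10 and Exosc9 exchanged ranks 1 and 2. Exosc3 had rank 4 in replicate 1 and rank 8 in replicate 2. The highest member was 6.04 times the lowest in replicate 1 and 12.1 times in replicate 2, so genes for subunits of the same complex had nuclear RNA levels several-fold apart. By place in the complex, the median TPM was 2.03 and 2.7 for the cap, 2.32 and 4.91 for the ring and 3.61 and 6.68 for the pair of nucleases. The medians stood in that order, lowest to highest, in both libraries, while the ranges of the 3 classes overlapped in each.

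The libraries were then compared on counts, with library sizes scaled by TMM (the trimmed mean of M values). The scaling matters because the median gene had a log2 TPM ratio, replicate 1 over replicate 2, of -0.655, and of -0.01 after TMM. A two-sided exact binomial test of rounded counts, adjusted over the 14698 genes averaging 10 counts or more, called 8 of the 10 members at 0.05. It called 59.9% of all tested genes, so most genes differed between the libraries by more than counting error and the members' count is near that share. Exosc3, Exosc4 and Exosc10 were higher in replicate 1, a direction called in 30.2% of genes. Exosc1, Exosc7, Exosc8, Exosc9 and Dis3 were higher in replicate 2, a direction called in 29.7%. The biological coefficient of variation between the libraries over all genes was 0.335, and the edgeR exact test with that dispersion called no member, against 0.361% of all genes. At an unadjusted p under 0.05 it had 0 members and 5.61% of all genes. The dispersion came from the same 2 libraries that the test compares, so the absence of calls says nothing about whether the exosome genes differed.

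Exosc4 had 89 counts in replicate 1 and 25 in replicate 2, a log2 ratio of 1.23 (adjusted p = 0.000135, exact binomial test). Exosc3 had 115 and 39 counts, a log2 ratio of 0.96 (adjusted p = 0.000359, exact binomial test). Exosc10 had 654 and 376 counts, a log2 ratio of 0.21 (adjusted p = 0.0378, exact binomial test). The Exosc10 difference was the smallest of those called, and its call was lost when libraries were scaled by total count. Exosc1 had 102 and 137 counts (log2 ratio -1.01, adjusted p = 3.37e-07, exact binomial test). Exosc7 had 126 and 167 counts (-0.99, adjusted p = 2.08e-08, exact binomial test). Both were close to 2-fold higher in replicate 2, at 2.01-fold and 1.98-fold. Exosc9 had 282 and 303 counts (-0.69, adjusted p = 3.99e-08, exact binomial test). Dis3 had 223 and 234 counts (-0.65, adjusted p = 5.13e-06, exact binomial test). Exosc8 had 172 and 166 counts (-0.53, adjusted p = 0.00188, exact binomial test). Raw counts of Exosc8, Exosc9 and Dis3 were nearly equal, and the difference lies in the smaller total of replicate 2. Exosc2 had 74 and 34 counts (0.53, adjusted p = 0.116, exact binomial test), and Exosc5 had 108 and 78 counts (-0.12, adjusted p = 0.678, exact binomial test), so neither passed.

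The difference between the libraries moved with base composition. Over the 14688 tested genes with a value, the median log2 ratio was -0.50 in the fifth of genes with the lowest GC content, then -0.17, -0.01 and 0.19, and 0.40 in the fifth with the highest. Spearman's rho between GC content and the ratio was 0.45 over these genes and 0.60 over the 10 members, given as descriptions of genes measured in the same 2 libraries. Dis3, at 43.9% GC, and Exosc9, at 44.4%, were higher in replicate 2. Exosc4, at 57.6% GC, was the highest in both GC content and ratio, whereas Exosc5, at 56.9%, had a ratio near 0. Exosc1 and Exosc3 were nearly equal in GC content, at 49.3% and 49.5%, with ratios of -1.01 and 0.96. Exosc7, at 50.4%, had a ratio of -0.99. The part of base composition in these differences was not tested.

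Transcript by transcript, the exosome genes held much of their RNA in forms annotated as not making the full protein. Of the 63 transcripts, 24 are typed retained intron, meaning that an intron stays within the transcript, and 14 of the 63 had 0 counts in both libraries. Exosc3 and Exosc4 have no such transcript in the annotation. For 6 members an intron of the first-numbered transcript (201), lying whole inside a counted retained-intron transcript, is shown at both ends, because reads inside it are what sets these transcripts apart. The sequences are from the GENCODE M21 transcripts, 5′ to 3′ on the gene's strand, and coordinates are mm10. Each line gives 10 exon bases in lower case and 20 intron bases in capitals, first at the start and then at the end of the intron.
Exosc2-205 intron start: cctcatcagtGTATCCTGCACCTCATTCTC
Exosc2-205 intron end: TTCCTTCATCACATGAGTAGgcggaggtcc
Exosc5-202 intron start: gggctgcctgGTAACTGGACTCCACTGAGC
Exosc5-202 intron end: ACCGCTTCCCGTCTCCCCAGgcgtggccga
Exosc8-208 intron start: ggatatgtcgGTGAGTTAAATGCTCATAAT
Exosc8-208 intron end: AGCTGCAGTGTTTCTTTCAGtccctaatgt
Exosc9-203 intron start: ggagaagaagGTGCGAGGCCTGCGGTGTGA
Exosc9-203 intron end: TAAATGGTGTTTGCTTACAGcgcctggacg
Exosc10-204 intron start: atttcggatgGTGAGTAGCGCAGCTGCGCC
Exosc10-204 intron end: TGACCCTTTCCCTTCTGCAGttcctgcctt
Dis3-204 intron start: tactgaggagGTCAGTCAGAGCACTCTGCA
Dis3-204 intron end: TTTAACATTGTATTTTCTAGgacatgaaaa
All 6 introns begin with GT and end with AG, the usual ends of an intron. They lie at chr2:31675905-31676667 (plus strand) in Exosc2, chr7:25663251-25664326 (plus) in Exosc5 and chr3:54732218-54732699 (minus) in Exosc8. The others lie at chr3:36552752-36553034 (plus) in Exosc9, chr4:148575905-148576149 (plus) in Exosc10 and chr14:99087851-99088761 (minus) in Dis3. They run from 245 bases in Exosc10 to 1076 bases in Exosc5. Exosc5-202 holds 4 of the 5 introns of Exosc5-201 and Exosc8-208 holds 3 of the 10 of Exosc8-201, of which 1 each is shown. No retained-intron transcript of Exosc1 or Exosc7 holds a whole intron of transcript 201 with 10 exon bases on each side. In nuclear RNA, a read inside such an intron may come from RNA not yet spliced, which cannot be told apart from a retained-intron transcript.

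**Figure D2:**
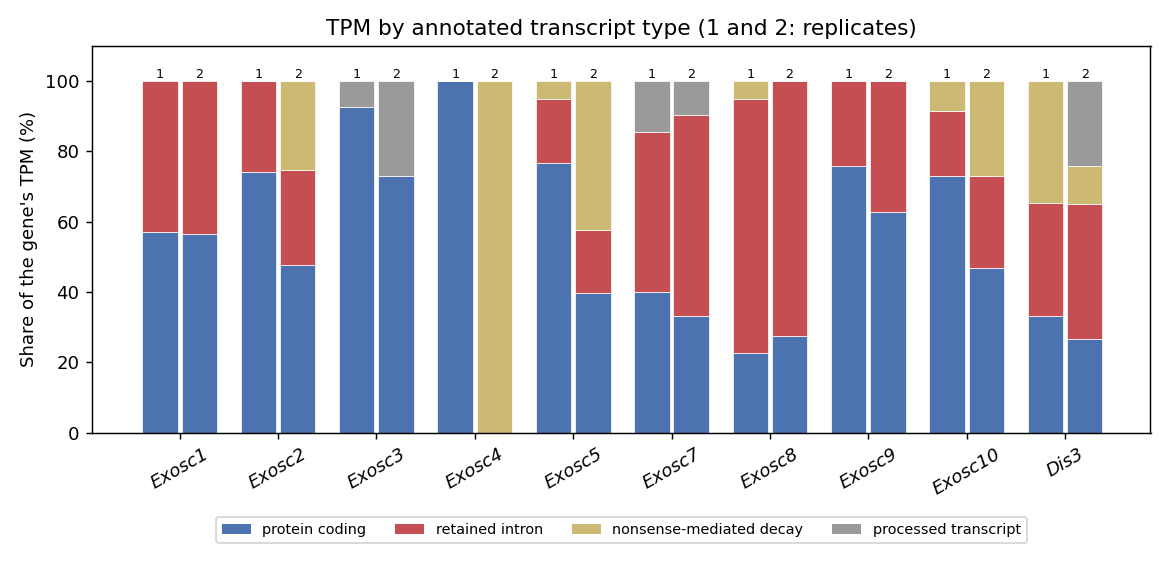
Share of each gene's TPM (%) by annotated transcript type; the left bar of each pair is replicate 1 and the right bar replicate 2. Retained-intron transcripts take 72.3% and 72.5% in Exosc8, and the Exosc4 bars are all protein coding in replicate 1 and all nonsense-mediated decay in replicate 2.

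Exosc8 had the largest retained-intron share, 72.3% of its TPM in replicate 1 and 72.5% in replicate 2, or 72.4% ± 0.152 (SD, n = 2). In the first transcript table its most abundant transcript by mean share was Exosc8-208, with 89.6 and 105 counts and 0.87 and 2.39 TPM, ahead of the protein-coding Exosc8-201 at 0.83 and 1.9 TPM. The short Exosc8-202 and Exosc8-207, both also typed retained intron, held mean shares of 15.7% and 10.9%. In the second table Exosc8-202 was the most abundant, at 30.4% and 33.8%, and Exosc8-208 held 13.4% and 18.1%. Exosc8 is thus a gene in which both libraries placed about the same large share outside the protein-coding form. Exosc7 followed at 45.3% and 57.3%, on Exosc7-202 and Exosc7-207 with mean shares of 25.7% and 23.8%, against 36.5% on the protein-coding Exosc7-201. Exosc1 had 42.9% and 43.4%, most of it on Exosc1-203, with 33.3 and 57 counts. Its protein-coding forms Exosc1-201 and Exosc1-202 held mean shares of 39.1% and 17.8%.

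Dis3 had retained-intron shares of 31.9% and 38.3%, on Dis3-204, with 37.5 and 72.3 counts, and on the short Dis3-206. Its one protein-coding transcript, Dis3-201, held 33.5% and 26.7%. The second transcript table gave Dis3 retained-intron shares of 56.6% and 66.3%, which in that table placed it above Exosc7, at 52.9% and 65.1%. Exosc9 had 24.1% and 37.2%, on Exosc9-203 (46.8 and 95.2 counts) and Exosc9-205 (38.4 and 46.3 counts), with a mean of 61.4% on the protein-coding Exosc9-201. In both Dis3 and Exosc9 the share was higher in replicate 2. Exosc2 had 25.8% and 27%, all on Exosc2-205, but 15.3% and 5.88% in the second transcript table. Exosc10 had 18.5% and 26.3%, on Exosc10-207 and Exosc10-204. Exosc5 had 18.2% and 18%, mainly on Exosc5-202, whose 46.3 and 49.2 counts spread over 5068 bases. Exosc5 therefore shows how the measure matters: by counts, which favour long transcripts, its retained-intron share was 45.7% and 63.3%.

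The median retained-intron share over the 8 members was 32.9% of TPM, against 27% over all 6946 genes that have such a transcript and average at least 10 counts. By library the members' medians were 28.8% and 37.8%, and those of all genes 23.6% and 30%. By counts the members' medians were 33.8% and 44.8%, against 13.3% and 18.1% over all genes. Of the 8, 5 lay above the all-gene median by TPM, the exceptions being Exosc2, Exosc5 and Exosc10. These are descriptions of a short list. On the TPM scale the gap to all genes was smaller than the gap between the members' own library medians. All genes moved the same way between the libraries, and the members' median was the higher in each library on both scales.

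By counts, the retained-intron share was higher in replicate 2 in 8 of 8 members, as it was in 69.2% of the 6946 genes. Counted with the other program it was higher in replicate 2 in 7 of the 8, the exception being Exosc2. Fisher's exact test of retained-intron against other counts, adjusted over those genes and added after the shares were seen, called 4 members, all higher in replicate 2. It called 45.2% of all genes, 39.8% in that direction, so the members' count is near the background. Exosc9 had count shares of 30.8% (95% Wilson interval 25.7 to 36.5) and 47.3% (41.6 to 52.8), with an adjusted p of 0.000251 by Fisher's exact test. Dis3 had 18.9% (14.3 to 24.6) and 33.9% (28 to 40), with an adjusted p of 0.00101 by Fisher's exact test. Exosc7 had 64.4% (55.6 to 72.1) and 81.1% (74.2 to 86.1), with an adjusted p of 0.00568 by Fisher's exact test. Exosc10 was the fourth, at 7.83% and 12.7% (adjusted p = 0.0273, Fisher's exact test). In the second transcript table the test also called 4 members, Exosc5, Exosc7 and Exosc9 with the higher share in replicate 2 and Exosc2 with the higher share in replicate 1 (13.2% and 5.65%). Of these, 2, Exosc7 and Exosc9, were called in both tables. Intervals cover counting error only, since reads without molecular identifiers are not independent molecules. They also leave out how a program divides reads between transcripts. In the second transcript table Dis3 had 48.9% and 53.3% (adjusted p = 0.249, Fisher's exact test), outside both of its intervals. Exosc7, at 70.7% and 83.2%, and Exosc9, at 34.8% and 49%, lay within theirs.

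**Figure D3:**
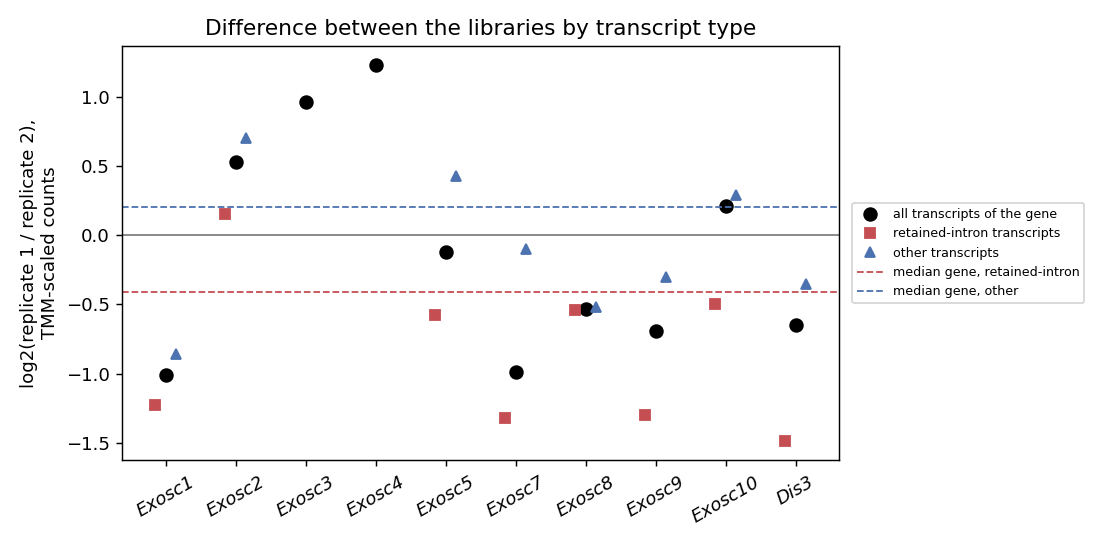
Log2 ratio of TMM-scaled counts, replicate 1 over replicate 2, for each gene (black circles), its retained-intron transcripts (red squares) and its other transcripts (blue triangles); dashed lines are the medians over all 6946 genes with a retained-intron transcript. The red squares lie below the blue triangles in all 8 members that have both, from nearly equal in Exosc8 (-0.54 and -0.52) to well apart in Dis3 (-1.49 and -0.35). The split by type uses the first transcript table, and that of Dis3 was weaker with the second.

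Splitting the log2 ratio by transcript type placed much of the difference between the libraries in the retained-intron counts. The median ratio over the 8 members was -0.91 for retained-intron transcripts and -0.20 for the others, against -0.41 and 0.20 over all genes. In Dis3 the ratios were -1.49 and -0.35, in Exosc9 -1.30 and -0.30 and in Exosc7 -1.32 and -0.10. In those 3 genes the higher level in replicate 2 lay mostly in the retained-intron counts of the first transcript table. In Exosc1 the other transcripts also had a ratio of -0.86. Exosc5 had -0.58 and 0.43, so its ratio near 0 as a gene combined opposite signs. The split of Dis3 depended on the program. In the second transcript table Dis3 had 219 and 372 retained-intron counts, against 229 and 326 other counts.

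Transcripts typed nonsense-mediated decay, which carry a premature stop codon, took shares that differed widely between the libraries in several members. Exosc4 was the extreme case, since the first transcript table put all 89 counts of replicate 1 on the protein-coding Exosc4-201 and all 25 counts of replicate 2 on the decay form Exosc4-203. Exon 1 of Exosc4-203 ends 4 bases after that of Exosc4-201, at chr15:76327465-76327667 against chr15:76327397-76327663 (mm10, plus strand). The junctions with exon 2 are shown because these 4 bases, in capitals, are what the splice site adds. Both lines are from the GENCODE M21 transcripts, 5′ to 3′, with 15 bases on each side of the junction.
Exosc4-203 junction: ggccgcacgagGCGAatccggggctcccgg
Exosc4-201 junction: tacgggccgcacgagatccggggctcccgg
The second transcript table put 88.5% of Exosc4 TPM in replicate 1 and 100% in replicate 2 on Exosc4-201, and 0 on Exosc4-203 in both. In replicate 2 the credibility interval of Exosc4-203 reached up to 0.861 TPM and that of Exosc4-201 up to 0.771 TPM, both from near 0. At 25 counts, the form of Exosc4 present in replicate 2 was not resolved.

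Elsewhere some of the decay forms rested on few counts. Exosc5-204 held 0% of Exosc5 TPM in replicate 1 and 42.1% in replicate 2, on 9 counts, but 12.8% and 33% in the second transcript table. In Dis3, Dis3-203 had 36.8 counts in replicate 1 and 0 in replicate 2, and Dis3-205 had 34.1 and 27.9. Decay forms made up 34.8% and 10.8% of Dis3 TPM in the first transcript table, but 6.78% and 1.55% in the second. Exosc2-202 held 25.1% in replicate 2 on 2 counts, and none in replicate 1, with 3.67% and 0% in the second transcript table. Exosc10-203 was the best covered, with 64.2 counts in replicate 1 and 103 in replicate 2, or 8.6% and 21.3% of the gene's TPM. The second transcript table gave Exosc10-203 8.05% and 15.1%. The protein-coding Exosc10-201 held 72.9% and 46.6%, and the second transcript table gave it 37.4% and 20.5%. In the first transcript table, Exosc3 had most of its TPM on the protein-coding Exosc3-201, at 92.7% and 56.7%, with 7.32% and 27% on the processed transcript Exosc3-202, but the second transcript table put 46.5% and 42.6% on Exosc3-201. In the first transcript table the protein-coding share of TPM was lower in replicate 2 in 9 of the 10 members, the exception being Exosc8 at 22.7% and 27.5%, and in 61.7% of the 9101 tested genes with protein-coding and other transcripts. In the second it was lower in replicate 2 in 6 of the 10 members and 61.1% of those genes. In the first, Exosc1 was nearly equal, at 57.1% and 56.6%. By counts in the first, the protein-coding share was higher in replicate 2 in Dis3, at 49.3% and 52.8%, and in Exosc8, at 25.2% and 26%.

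By position, 7 of the 10 genes start within 1000 bases of the start of a protein-coding gene on the opposite strand. The share was 18.2% (1584 of 8726) among detected protein-coding genes and 10.8% among all of them; this comparison was made after the positions were seen and was not tested. Exosc7 starts 10 bases from Zdhhc3, Exosc1 starts 57 bases from Zdhhc16, Exosc8 starts 146 bases from Alg5 and Exosc5 starts 183 bases from Bckdha. Dis3 starts 346 bases from Pibf1, Exosc4 starts 618 bases from Oplah and Exosc3 starts 631 bases from Dcaf10. Partners were not at a common level: Zdhhc3 had 5.49 and 10.7 TPM, whereas Oplah had 0.85 and 0.56 TPM.

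Such overlap bears on the values, since the strand setting of the counting is not given in the sources used here. In all, 6 members overlap a protein-coding gene on the opposite strand. Of the 31-base words in its transcripts, Exosc4 shared 22.1% with other genes, mostly Oplah. Exosc2 shared 14.8%, mostly with the antisense gene Gm13427, which had 0 counts in both libraries. Exosc9 shared 11.3%, mostly with Ccna2, at 27.8 and 55.4 counts. Exosc5 shared 6.03%, Dis3 5.08% and the other members 1.89% or less, down to 0% in Exosc10. The levels of Exosc4, Exosc2 and Exosc9 are therefore the least certain of the 10 on this measure. The genes lie at chr19:41922292-41933423 (Exosc1), chr2:31670715-31681349 (Exosc2), chr4:45316613-45342732 (Exosc3), chr15:76327397-76330677 (Exosc4) and chr7:25659164-25671368 (Exosc5). The others lie at chr9:123113215-123136129 (Exosc7), chr3:54728678-54735393 (Exosc8), chr3:36552606-36565727 (Exosc9), chr4:148558429-148582401 (Exosc10) and chr14:99075206-99099770 (Dis3), all mm10. Exosc6, the ring subunit gene outside the 10, was listed at 0 counts in both libraries. All 1296 of its 31-base words (100%) also occur in transcripts of Aars on the same strand, so its reads cannot be placed and its 0 gives no level.

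**Figure D4:**
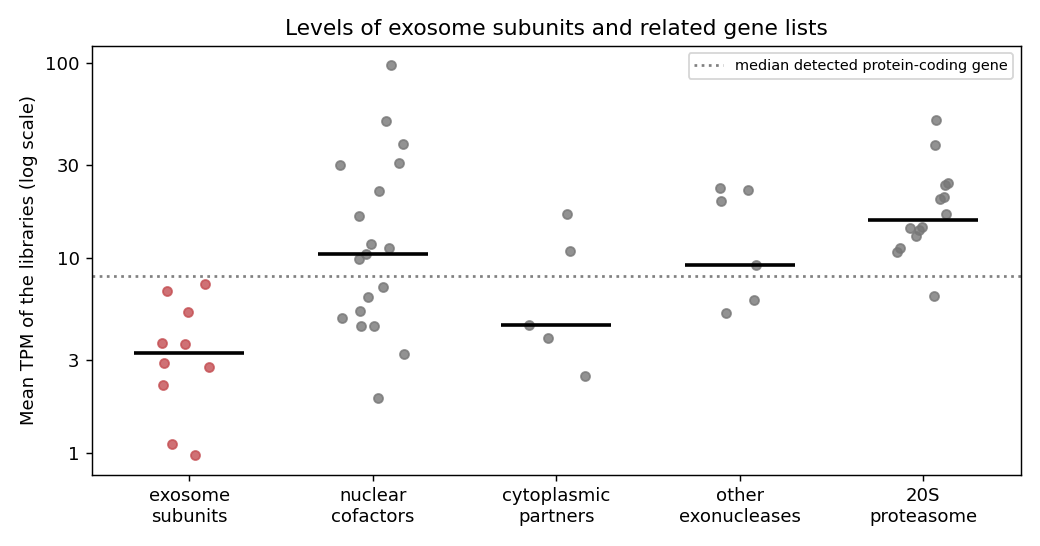
Mean TPM over both libraries (log scale) of each gene in the exosome (red) and in 4 related lists (grey); black bars are list medians and the dotted line is the median detected protein-coding gene. Exosc6, at 0 TPM among the other exonucleases, cannot be drawn on this axis but counts in the bar of that list; the exosome points all lie below the dotted line.

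Set beside genes that work with it, the exosome was among the lower lists, with a median of 3.26 TPM and 8 of 10 detected in both libraries. A list of 19 nuclear cofactor genes, all detected, had a median of 10.5 TPM. One of them, the GTPase gene Gtpbp2, at 97.3 ± 13.3 TPM, is known for a role in ribosome rescue in the cytoplasm and its place in the list is uncertain; the median without it was 10.2 TPM. The next highest were Zfc3h1, the zinc-finger scaffold of a poly(A) tail targeting complex, at 50.5 ± 26.6 TPM, and Rbm7, the RNA-binding subunit of the nuclear exosome targeting complex, at 38.3 ± 6.17 TPM (SD, n = 2 each). All 5 cytoplasmic partners were detected, with a median of 4.52 TPM, led by Hbs1l at 16.9 TPM, Skiv2l, the cytoplasmic exosome helicase, at 10.9 TPM and Wdr61 at 4.52 TPM. The exosome median was thus nearest to that of its cytoplasmic partners.

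Of 7 other exonuclease or exosome-like genes, 6 were detected, with a median of 9.16 TPM over the 7 and of 14.4 TPM without Exosc6. They were led by the 5′ to 3′ exonucleases Xrn1 at 22.9 TPM and Xrn2 at 22.3 TPM and by Rexo4 at 19.7 TPM. The 20S proteasome, another barrel of many subunits, had 14 of 14 detected and a median of 15.7 TPM, led by Psmb6 at 51.3 TPM, Psma3 at 37.9 TPM and Psma7 at 24.3 TPM. Between the libraries, the exact binomial test called 3 exosome genes higher in replicate 1 and 5 higher in replicate 2. In the same order it called 6 and 5 of the nuclear cofactors, 1 and 0 of the cytoplasmic partners, 2 and 1 of the other exonucleases and 8 and 1 of the proteasome genes. The median retained-intron share was 32.9% in the exosome, 31.7% in the nuclear cofactors, 24.7% in the cytoplasmic partners, 25.9% in the other exonucleases and 34% in the proteasome, so the exosome lay within the range of these lists.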

How the data were processed

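For each of the 2 libraries the authors deposited 1 table by gene and 2 by transcript. The gene table and the first transcript table, with column names in the manner of RSEM per the file headers, gave expected counts, TPM, posterior mean TPM and credibility bounds on TPM (of a level not stated), and per transcript the percent of the gene's TPM. The authors' second transcript table, with kallisto-like column names, gave TPM and estimated counts. Per the deposited notes, the reference was mm10 with GENCODE M21. Tools, aligner and strand setting: not given in the sources used here. Rows without a mouse gene (26345) held 1.79% and 0.318% of counts and were left out.

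Levels are TPM as deposited by the authors. For tests, expected counts were rounded and library sizes scaled by TMM (edgeR 4.0.16, R 4.3.3; factors 0.945 and 1.059). Log2 ratios used a prior count of 0.5. Exact binomial tests (in R) were adjusted by Benjamini-Hochberg over all genes averaging 10 counts or more. Fisher tests (scipy 1.17.1, Python 3.11.15) were adjusted over the 6946 of those genes with a retained-intron transcript. The threshold was 0.05 for both. These tests measure counting error, and the edgeR exact test adds the common spread. DESeq2 1.42.0 size factors were an alternative. The exact binomial and Fisher tests were also run on simulated counts that held counting error only, as these tests assume. Those runs therefore say nothing about spread between libraries beyond counting error. All 10 members were named; of each related list, the 3 highest by mean TPM and any below 1 TPM in both libraries; of transcripts, those with a mean share of 10% or more and the leading retained-intron or decay form, with others where a count turned on them. The lists of members and of related genes were drawn up with earlier results of these data known. The Fisher test and the comparisons of GC content and of neighbouring starts were added after values were seen. Promoter and protein sequences were not used here.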

Additional observations from a re-analysis of the deposited data

How the results depend on the processing

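Of the 10 members, 8 were at 1 TPM or more in both libraries, 9 with the second transcript table, 10 by posterior mean TPM and 9 without either replicate, but 1 (Exosc10) at 5 TPM or more. The median of 3.26 TPM was 3.45 with the second transcript table and 3.44 by posterior mean, between 2.17 and 4.69 when a replicate was left out, and 11.3 when TPM was rescaled without short structural and mitochondrial RNAs, which by construction raises every other gene. The binomial test called 8 members, 8 with DESeq2 size factors, 7 with total counts (Exosc10 lost, log2 ratio 0.05), 8 without a filter on low counts and 9 with the second transcript table, while the edgeR exact test, which adds the spread between the libraries, called 0. The second transcript table gave Exosc2 a log2 ratio of -0.34. The median retained-intron share of 32.9% was 39.3% by counts, 44.7% with the second transcript table and 42.5% over all transcripts not typed protein coding, and between 28.8% and 37.8% when a replicate was left out; the cause was not tested. The Fisher test on retained-intron counts called 4 members, 4 with the second transcript table and 5 at a mean count of 50 or more, both alternatives chosen after seeing the data. The share of Exosc2, replicate 1 minus replicate 2, was -9.13 percentage points and 7.55 with the second transcript table. In that table Exosc5 and Exosc2 gained a call, Exosc2 in the opposite direction, and Exosc10 and Dis3 lost theirs. The list medians without Exosc6 and without Gtpbp2, and the protein-coding shares in the second transcript table, were also chosen after seeing the data. No paired analysis was possible because the libraries form 1 group. Depth limits the transcript shares, several of which rest on fewer than 10 counts, and the choice of transcript table moved well-covered shares too, as for Exosc10-201.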
